A study of Bos taurus with 20 samples.

Results

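The genes described here are the receptor chains, kinases and inhibitors that carry an interferon signal into a blood cell: the receptor genes IFNAR1, IFNAR2, IFNGR1 and IFNGR2, the kinase genes JAK1, JAK2 and TYK2, and the inhibitor genes SOCS1 and SOCS3. They were chosen by name, and each of the 9 symbols matched 1 Entrez identifier among the 37063 genes of the count files. All 9 passed the filter on low counts. The measurements are RNA counts from maternal whole blood, taken on gestation day 63, with a single library for each of 20 cows. The birth weight (BW) of the calf was the only variable that differed between cows in the sample labels. The paper also gives a range of recipient ages and considers dam parity in its model of calving. Age and parity per cow are not in the labels, so their part was not tested. All 20 cows formed 1 group: each had received a single in vitro produced blastocyst from an Angus donor oocyte fertilized with sex-sorted semen, and each carried a female calf, so no nonpregnant cow and no male pregnancy served as a control. The paper's text calls the recipients lactating dairy cows, whereas its overview of the samples gives Angus, and the breed was not resolved here. Each cow is named below by the BW of its calf, which was different for every cow.

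Interferons signal through paired receptor chains. IFNAR1 and IFNAR2 form the receptor for type I interferons, including interferon tau, the signal by which a ruminant conceptus announces itself to its mother, and IFNGR1 and IFNGR2 form the receptor for interferon gamma. TYK2 and JAK1 are attached to the type I receptor, JAK1 and JAK2 to the interferon gamma receptor, and the kinases phosphorylate STAT proteins that switch on interferon-stimulated genes. SOCS1 and SOCS3 are induced by cytokine signaling and act as brakes on the kinases or receptors.

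Total counts ranged from 24632077 to 39892111 per cow, with a median of 33412740, and no library was a repeat of another. Calf BW was 45.0 ± 10.1 kg (SD, n = 20). Slope estimates left out the heaviest calf, of 72.5 kg, and the remaining BW was 43.5 ± 7.97 kg (SD, n = 19). The same exclusion was made in the original test. Of the blood cell markers, 8 neutrophil, 11 T cell, 7 B cell and 8 platelet genes were detected above the filter, so the libraries hold the cell types of blood. No sequencing batch is named in the labels or the paper, so no value within batches could be given. Whole blood mixes cell types, and a lower level of a gene because fewer cells of a type were present cannot be told apart from less RNA per cell.

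Among the receptor genes, IFNAR1 varied least between cows. Its lowest level, given as TMM-normalized counts scaled by library size (CPM), was 332 for the 47.4 kg calf's dam. The median was 391 and the highest, for the dam of the 53 kg calf, was 448. These levels span 1.35-fold. IFNAR2 ranged from 236 CPM in the 47.4 kg cow to 356 CPM in the 41.5 kg cow, with a median of 304. IFNGR1 ranged from 246 CPM in the 46 kg cow to 391 CPM in the 38 kg cow, with a median of 330. For both IFNAR2 and IFNGR1, the same 4 cows (45, 46, 47.4 and 56 kg) had the lowest levels. IFNGR2 ranged from 147 CPM in the 47.4 kg cow to 201 CPM in the 50 kg cow, with a median of 175. The coefficient of variation between cows (SD over mean) was 7.61% for IFNAR1, 12.3% for IFNAR2, 12.7% for IFNGR1 and 9.13% for IFNGR2, beside a median of 15.6% over 16269 genes.

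JAK1 had the narrowest range of the 9 genes, and only 6.97% of genes had a lower coefficient of variation. It ranged from 542 CPM in the 37 kg cow to 670 CPM in the 46 kg cow, with a median of 584 and a 1.24-fold span. TYK2 ranged from 175 CPM in the 41.5 kg cow to 245 CPM in the 56 kg cow, with a median of 199. Its second highest level, 244 CPM, was in the 55 kg cow, so the cows of the heaviest calves among the 19 held both top values. JAK2 ranged from 98.3 CPM in the 45 kg cow to 148 CPM in the 55 kg cow, with a median of 127.

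The brakes varied most. SOCS3, which binds cytokine receptors and inhibits the attached kinases, ranged from 61.8 CPM in the 45 kg cow to 133 CPM in the 50 kg cow, a 2.15-fold span, with a median of 90.3. Its coefficient of variation was 21.2%. SOCS1, the inhibitor most closely tied to interferon gamma signaling, was measured from 40 to 129 reads per cow. Its level ranged from 1.27 CPM in the 49.5 kg cow to 3.20 CPM in the 40 kg cow, with a median of 2.14 and a coefficient of variation of 22.4%. Counting error alone would give 15.8% at the lowest of these read numbers and 8.80% at the highest, whereas it stayed at or below 2.47% for the other 8 genes. A reading of which gene is the most abundant per length was not made, because no transcript lengths were used here.

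**Figure D1:**
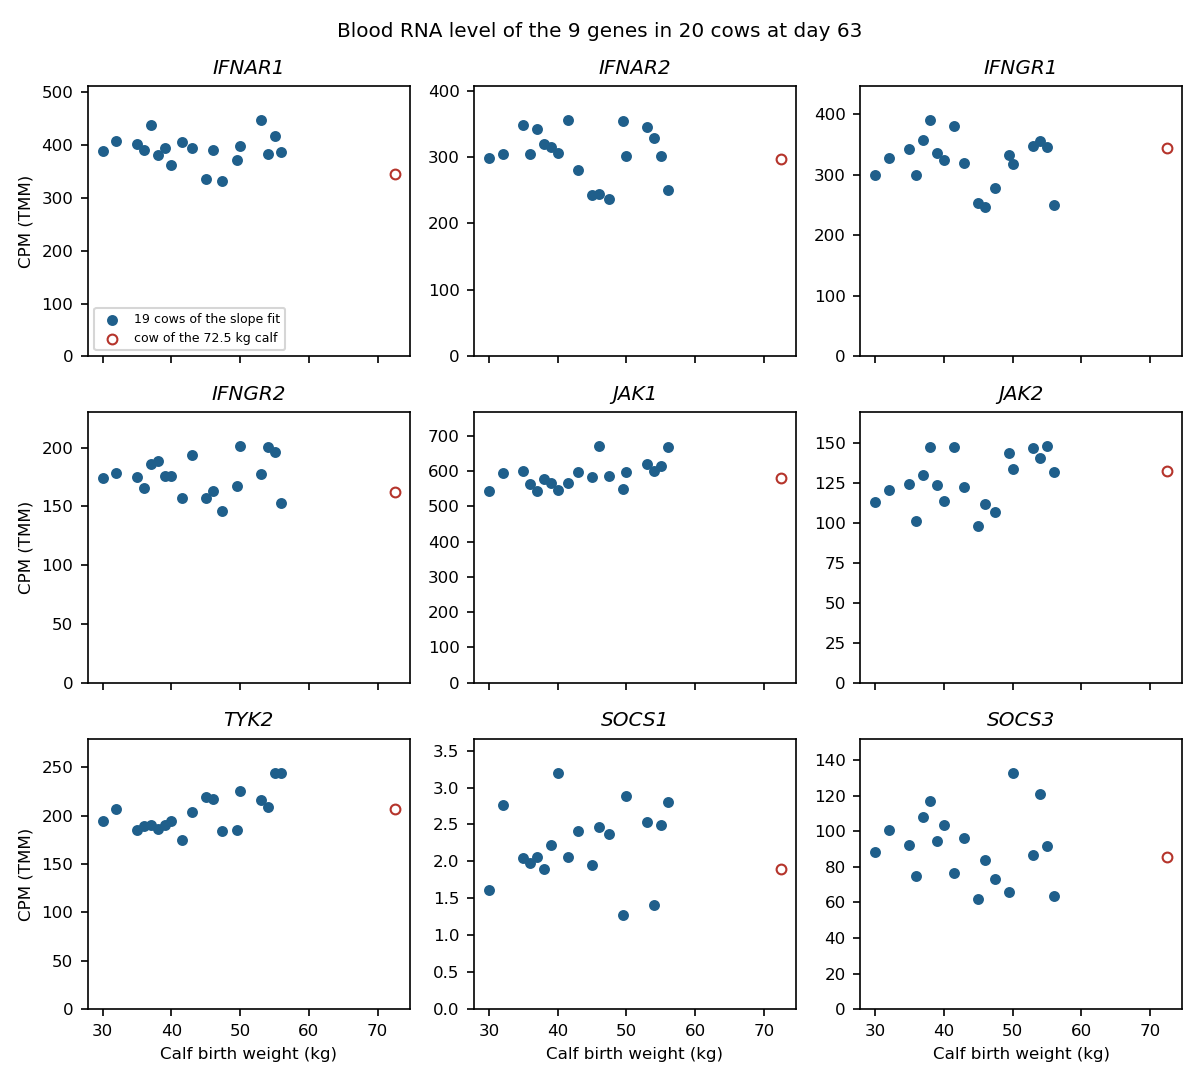
Level of each of the 9 genes (y axis, CPM after TMM normalization, from 0) against calf BW (x axis, kg), 1 point per cow. Filled points are the 19 cows of the slope fit and the open point is the cow of the 72.5 kg calf. TYK2 has its highest values, 244 and 245 CPM, in the 55 and 56 kg cows, and IFNAR2 and IFNGR1 have 4 low cows at 45, 46, 47.4 and 56 kg.

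Slopes on calf BW, the relation the series was designed around, were small for the 9 genes. None had a false discovery rate (FDR) below 0.05 in edgeR's quasi-likelihood test fitted over 16206 genes in 19 cows, and none did in DESeq2. At an unadjusted p below 0.05, 2 of the 9 genes passed in edgeR, both with positive slopes, beside 6.66% of all genes tested passing in the positive direction and 13.6% in either direction. Across all genes tested edgeR called 0 at this FDR, with 2211 genes at an unadjusted p below 0.05, and DESeq2 called 189 of 23087 genes (0.819%).

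Both of these genes encode kinases of the type I receptor. For TYK2, the slope was 0.0105 per kg on the log2 scale (SE 0.0031), which is 1.08-fold per 10 kg (95% confidence interval 1.03 to 1.124, edgeR p = 0.00258, FDR = 0.176). The correlation of TYK2 with BW was r = 0.51 (permutation p = 0.0201) and Spearman correlation = 0.51 (permutation p = 0.022) over 20 cows. Without the cows of the 30 and 72.5 kg calves, the 2 farthest from the median BW, r was 0.64. For JAK1, the slope was 0.0058 per kg (SE 0.0023), 1.04-fold per 10 kg (95% confidence interval 1.01 to 1.08, edgeR p = 0.0203, FDR = 0.274). Its correlation with BW was r = 0.41 (permutation p = 0.0729) and Spearman correlation = 0.52 (permutation p = 0.0209), and r was 0.51 without those 2 cows. The unadjusted p of JAK1 no longer passed 0.05 when either the 30 kg or the 56 kg cow was left out, or with the 72.5 kg cow added (edgeR p = 0.0852, FDR = 0.449).

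JAK2, the kinase attached to IFNGR2, had a slope of 0.0091 per kg (SE 0.0049), 1.06-fold per 10 kg (95% confidence interval 0.992 to 1.14, edgeR p = 0.0801, FDR = 0.438). Its r with BW was 0.37 (permutation p = 0.106) and the Spearman correlation was 0.42 (permutation p = 0.065).

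The 4 receptor genes had slopes close to zero. Per 10 kg of BW, the fold was 0.993 for IFNAR1 (95% confidence interval 0.948 to 1.04, edgeR p = 0.772), 0.967 for IFNAR2 (0.895 to 1.04, p = 0.375), 0.969 for IFNGR1 (0.895 to 1.05, p = 0.424) and 1.004 for IFNGR2 (0.949 to 1.06, p = 0.898). Changes within these intervals are not excluded, and the smallest change detectable with 19 cows was not computed. The interval of SOCS1 was wider, 0.885 to 1.20 around 1.03-fold (edgeR p = 0.691), and that of SOCS3 was 0.85 to 1.10 around 0.967-fold (edgeR p = 0.592). Ratios within a pair, which do not depend on how libraries are scaled, gave no relation with BW that passed 0.05 among the 4 tested. Over 20 cows, r was -0.03 for IFNAR2 to IFNAR1 (permutation p = 0.915) and -0.01 for IFNGR2 to IFNGR1 (permutation p = 0.982). It was 0.17 for JAK2 to JAK1 (permutation p = 0.473) and -0.10 for SOCS3 to SOCS1 (permutation p = 0.676). In the 19 cows of the slope fit, r in the same order was -0.23 (permutation p = 0.349), 0.25 (0.301), 0.13 (0.585) and -0.19 (0.439).

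**Figure D2:**
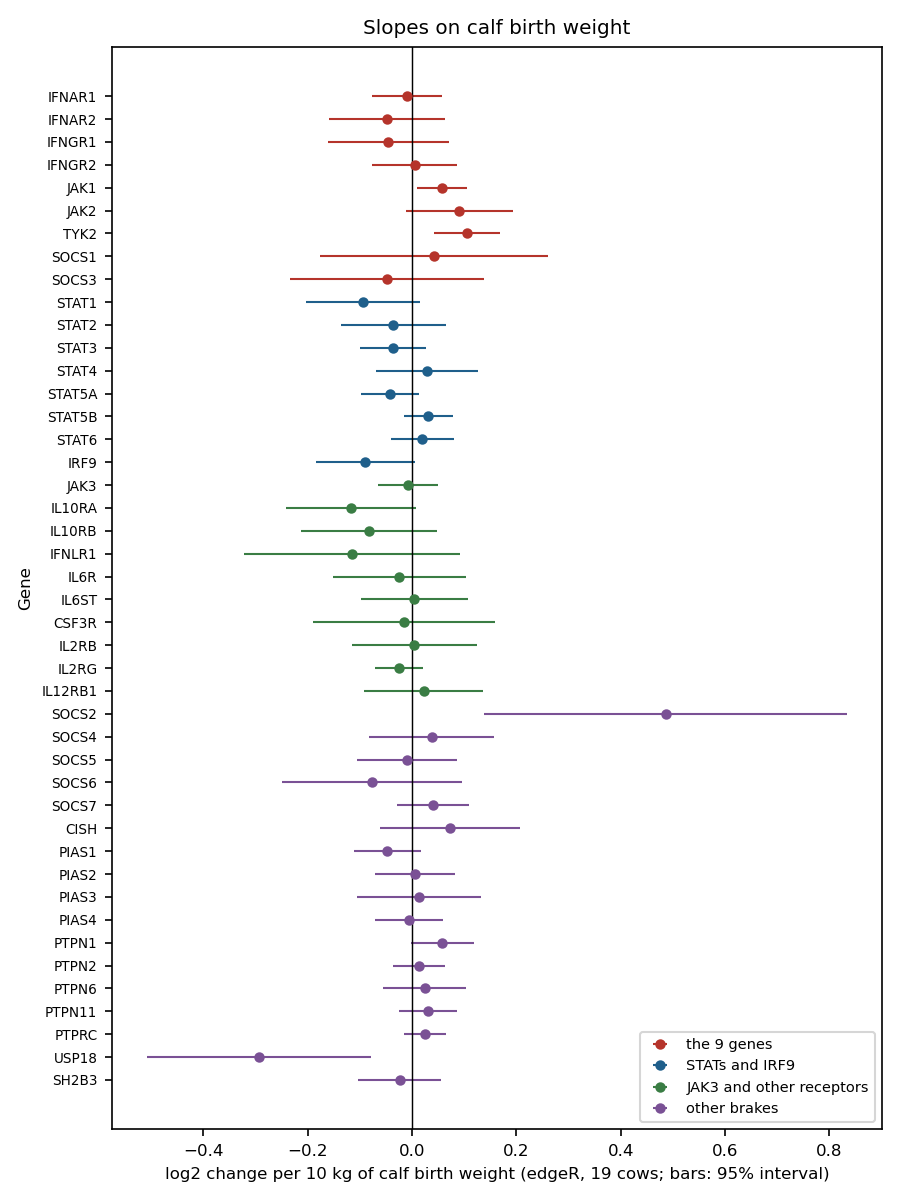
Slope of each gene on calf BW (x axis, log2 change per 10 kg, edgeR in 19 cows) for the 9 genes and 35 further genes of the pathway (y axis). Points are estimates and bars their 95% confidence intervals. The intervals of TYK2 and JAK1 lie above 0, those of the other 7 genes cross it, and SOCS2 and USP18 lie farthest from 0 among the further genes.

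Markers of blood cell types moved with several of these genes. Each list was scored as the mean of its genes' standardized log2 levels, and 126 relations between a gene and a list were tested together. TYK2 and JAK1 went with the eosinophil score, at r = 0.82 (Spearman correlation = 0.86, permutation p = 3e-05, adjusted p = 0.00189) and r = 0.76 (Spearman correlation = 0.66, permutation p = 1e-04, adjusted p = 0.00315). Without the 2 cows of the most extreme scores, both stayed at r = 0.72. That score rests on 2 of 7 listed markers, IL5RA (the interleukin 5 receptor chain) and SMPD3. CCR3 and ALOX15 were at 0 counts in every cow, and EPX, PRG2 and ADGRE1 had no match by symbol, so the defining granule proteins of eosinophils were not measured. IRF1, IFIT2, IFIT3, GZMA and CX3CR1, which blood cells are known to use, were also listed at 0 in every cow, so a 0 in these files does not show that a gene was silent. The summed level of both markers ranged from 33.1 to 269 CPM, and the score itself had r = 0.45 with BW (permutation p = 0.0437). With the eosinophil score as a further term, the slope was 0.0052 per kg for TYK2 (edgeR p = 0.0754, FDR = 0.613) and 0.0026 per kg for JAK1 (edgeR p = 0.274, FDR = 0.785). Over all 16206 genes, 1394 had an unadjusted p below 0.05 in that fit, beside 2211 without the score. In that same fit JAK2, whose r with the score was -0.06, had a slope of 0.0137 per kg (edgeR p = 0.0181, FDR = 0.484). The unadjusted p of JAK2 was below 0.05 in 4 of 32 alternative settings. The part of eosinophil number in these slopes was not tested, as cells were not counted.

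The interferon gamma receptor genes and SOCS3 went with myeloid lists. The neutrophil score had r = 0.79 with IFNGR2 (Spearman correlation = 0.77, permutation p = 3e-05, adjusted p = 0.00189) and r = 0.76 with SOCS3 (Spearman correlation = 0.69, permutation p = 0.00017, adjusted p = 0.00428). The monocyte score had r = 0.70 with IFNGR1 (Spearman correlation = 0.52, permutation p = 0.00066, adjusted p = 0.0139), which was 0.39 without the 2 cows of the most extreme scores. For IFNGR2 and SOCS3, the r with the monocyte score was 0.63 (adjusted p = 0.0249) and 0.64 (adjusted p = 0.0236). SOCS3 also went with the platelet score (r = 0.64, Spearman correlation = 0.67, adjusted p = 0.0249). The score of 10 other receptor and kinase genes that use JAK signaling had r = 0.77 with SOCS3 (adjusted p = 0.00315) and r = 0.68 with IFNGR2 (adjusted p = 0.0167), and 1 of its genes, CSF3R, is also a neutrophil marker. The neutrophil list had 8 of 9 genes matched and tested with a summed level of 2697 to 4566 CPM, the monocyte list 7 of 8 genes tested with 1856 to 3999 CPM, and the platelet list 8 of 8 with 465 to 1453 CPM. Given the neutrophil and T cell scores, the slope of SOCS3 on BW was -0.0138 per kg (edgeR p = 0.0139, FDR = 0.211). That was 1 of 32 alternative settings and the only one in which its unadjusted p was below 0.05. Given the monocyte score, its slope was 0.0019 per kg.

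**Figure D3:**
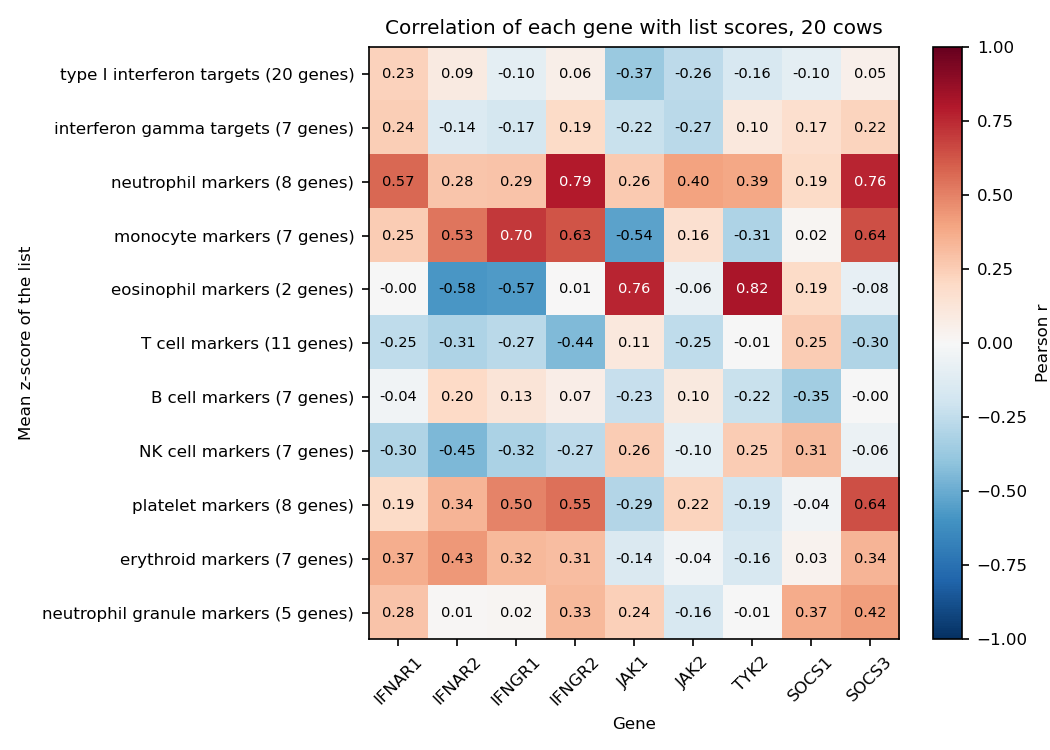
Pearson r over 20 cows between the log2 level of each of the 9 genes (x axis) and the score of each list (y axis, with the number of genes scored). Red is positive and blue negative. Among the interferon target and cell marker lists plotted, the highest values are those of TYK2 (0.82) and JAK1 (0.76) with the eosinophil markers and of IFNGR2 (0.79) and SOCS3 (0.76) with the neutrophil markers.

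Some of the 9 genes varied together across cows. Of the 36 pairs among them, 25 had a positive and 11 a negative r, with a median of 0.26, beside a median of -0.002 over all 132332046 pairs of genes. An r of at least 0.6 was found for 5 pairs (13.9%), beside 1.40% of all pairs, and the same 5 pairs passed an adjusted p of 0.05 over the 36. Apart from SOCS1, the 9 genes lay above at least 84.2% of genes in mean level. The background over all pairs was not matched for level, so it is not a like comparison. By Spearman correlation, JAK1 with TYK2 and IFNAR2 with JAK2 did not pass (adjusted p = 0.0584 each), and IFNAR2 with JAK2 was also lost without the 53 kg (adjusted p = 0.0506), the 47.4 kg (0.0526) or the 45 kg cow (0.111). IFNAR2 and IFNGR1, chains of different receptors, had r = 0.86 (Spearman correlation = 0.77, permutation p = 1e-05, at the floor of 100000 resamples, adjusted p = 0.00018). IFNGR2 and SOCS3 had r = 0.84 (Spearman correlation = 0.88, permutation p = 1e-05, adjusted p = 0.00018). JAK1 and TYK2 had r = 0.70 (Spearman correlation = 0.59, permutation p = 0.00062, adjusted p = 0.00657). JAK2 had an r of 0.70 with IFNGR1 (Spearman correlation = 0.76, permutation p = 0.00073, adjusted p = 0.00657) and of 0.63 with IFNAR2 (Spearman correlation = 0.58, permutation p = 0.00319, adjusted p = 0.023), and of 0.11 with JAK1 (permutation p = 0.654) and 0.09 with TYK2 (permutation p = 0.694). The difference between these correlations was not tested. The chains of a single receptor had r = 0.57 for IFNAR1 and IFNAR2 (Spearman correlation = 0.43, permutation p = 0.00915, adjusted p = 0.0519) and r = 0.55 for IFNGR1 and IFNGR2 (Spearman correlation = 0.48, permutation p = 0.0121, adjusted p = 0.0545). Neither passed here, but both did with variance-stabilized counts (adjusted p = 0.0477 each) and with RLE size factors (adjusted p = 0.0468 each). Without the 2 cows farthest from the median of the first gene named, r was 0.83 for IFNAR2 and IFNGR1, 0.83 for IFNGR2 and SOCS3, 0.62 for JAK1 and TYK2 (without the 46 and 56 kg cows, which lay apart at 670 and 669 CPM of JAK1 above the next at 620), 0.86 for IFNGR1 and JAK2, 0.45 for IFNAR2 and JAK2 and 0.27 for IFNAR1 and IFNAR2. SOCS1 had no pair past the threshold, and its r with SOCS3 was 0.16 (permutation p = 0.501).

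**Figure D4:**
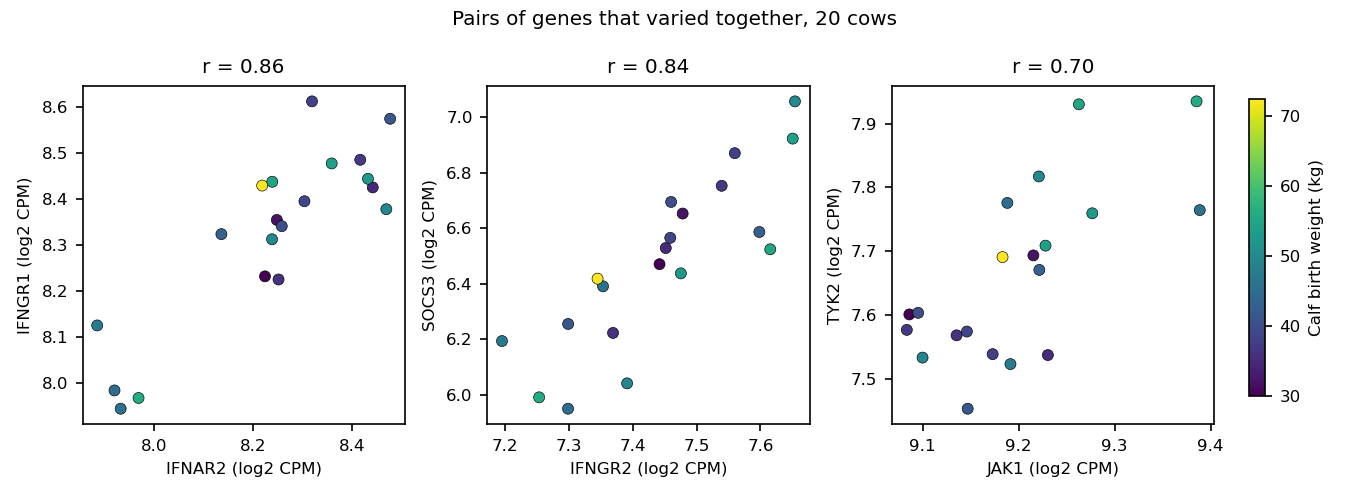
Log2 CPM of 3 pairs of genes, 1 point per cow, colored by calf BW (kg): IFNAR2 and IFNGR1 (r = 0.86), IFNGR2 and SOCS3 (r = 0.84) and JAK1 and TYK2 (r = 0.70). In the first panel 4 cows lie at the lower left, lowest in both genes. In the third panel the 46 and 56 kg cows lie apart at the highest JAK1.

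The 4 cows lowest in IFNAR2 were also the 4 lowest in IFNGR1. In them IFNAR2 was between 236 and 250 CPM, against 281 to 356 CPM in the other 16, and IFNGR1 was between 246 and 279 CPM against 299 to 391 CPM. JAK1 ranked 1 and 2 of 20 in the 46 and 56 kg cows and 11 and 10 in the 45 and 47.4 kg cows, and IFNGR2 ranked 15 to 20. The eosinophil score ranked 1, 2 and 3 in the 56, 46 and 45 kg cows and 13 in the 47.4 kg cow, and the monocyte score ranked 13 to 20. In the 47.4, 45, 46 and 56 kg cows, the T cell score ranked 1, 3, 6 and 11 and the NK cell score 1, 6, 3 and 10. The part of these cell types was not tested. Leaving out cows chosen for low IFNAR2 narrows its range, which can by itself lower r for pairs with IFNAR2 or IFNGR1. Not every such pair fell, as r for IFNGR1 and JAK2 was 0.70 in all cows. Without the 4 cows, r was 0.56 for IFNAR2 and IFNGR1 (permutation p = 0.026, adjusted p = 0.187), 0.48 for IFNAR2 and JAK2 (adjusted p = 0.337) and 0.67 for JAK1 and TYK2 (permutation p = 0.00431, adjusted p = 0.0517). IFNGR2 and SOCS3 kept r = 0.79 and IFNGR1 and JAK2 had r = 0.78, each with an adjusted p of 0.00504.

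The correlations were also computed given cell marker scores. In these tests, what remained of each gene after fitting the scores was permuted across cows, with no allowance for the scores fitted. The p-values given scores are therefore too small, and a pair with an adjusted p near 0.05 may not pass. Given the neutrophil, T cell, monocyte and eosinophil scores, r was 0.88 for IFNGR1 and JAK2 (adjusted p = 0.00036), 0.73 for IFNAR2 and IFNGR1 (adjusted p = 0.00792) and 0.63 for IFNAR2 and JAK2 (adjusted p = 0.0401). It was 0.23 for IFNGR2 and SOCS3 (adjusted p = 0.684) and 0.29 for JAK1 and TYK2 (adjusted p = 0.663), and the differences between pairs were not tested. Given the neutrophil and T cell scores alone, these last pairs passed, at 0.55 (adjusted p = 0.0488) and 0.68 (adjusted p = 0.026). With those scores 4 further pairs of a receptor chain with a kinase passed with negative r: -0.62 for IFNAR2 and TYK2, -0.61 for IFNGR1 and TYK2, -0.57 for IFNAR2 and JAK1 and -0.56 for IFNGR1 and JAK1. Without any marker score, these negative values were -0.43, -0.42, -0.47 and -0.46, and given all 4 scores they were between -0.14 and 0.07.

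**Figure D5:**
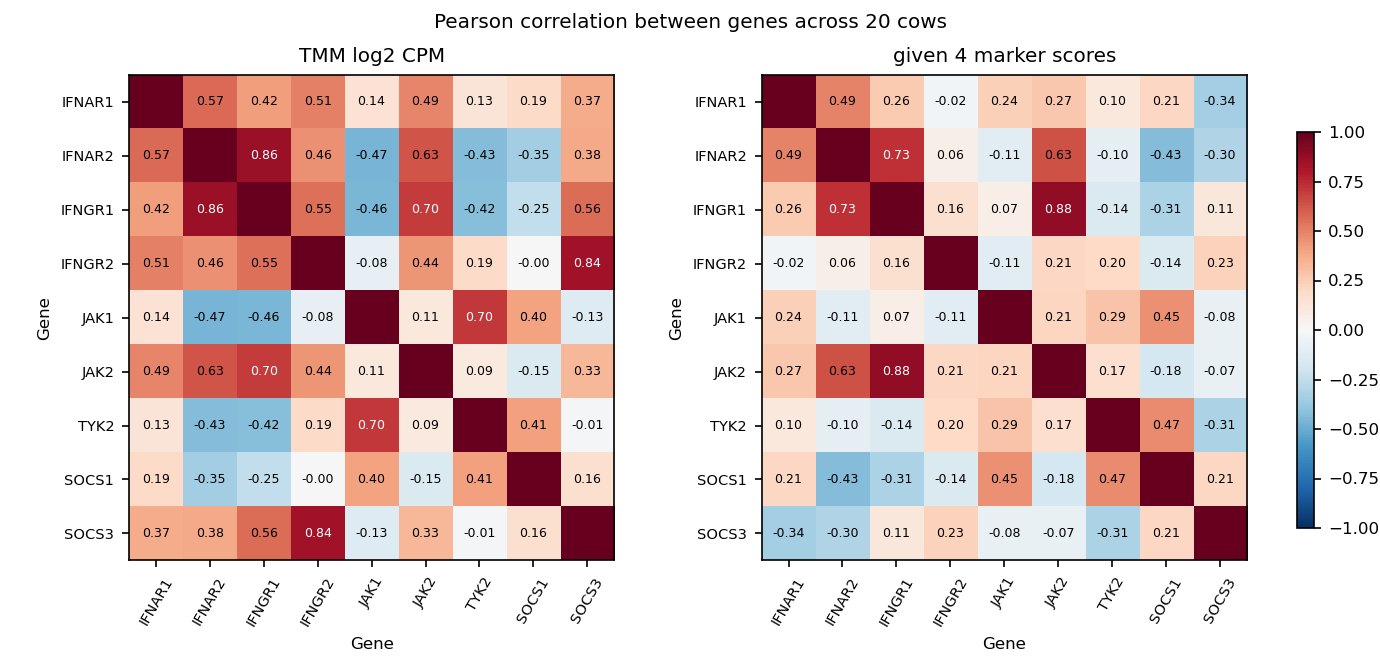
Pearson r between the 9 genes over 20 cows (both axes list the genes), from log2 CPM on the left and given the neutrophil, T cell, monocyte and eosinophil scores on the right. Red is positive and blue negative. IFNGR1 with JAK2 reads 0.70 on the left and 0.88 on the right, whereas IFNGR2 with SOCS3 reads 0.84 and 0.23.

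IFNAR1, IFNAR2 and IFNGR2 lie side by side on chromosome 1. In the gene table of the ARS-UCD2.0 assembly, the order is IFNAR2, IL10RB, IFNAR1 and IFNGR2, with 0 protein-coding genes between neighbors and 0 overlapping bases. IL10RB encodes a shared chain of the interleukin 10 and interferon lambda receptors. Its level followed that of its neighbor IFNAR2 (r = 0.90, Spearman correlation = 0.92, permutation p = 1e-05, again at the floor, adjusted p = 6e-05 over the 6 pairs of the cluster). With its other neighbor IFNAR1 the r was 0.59 (Spearman correlation = 0.45, permutation p = 0.00651, adjusted p = 0.0183). Without the 2 cows farthest from the median, these were 0.84 and 0.33. The neighbors IFNAR1 and IFNGR2 had r = 0.51 (permutation p = 0.0221, adjusted p = 0.0265), which was 0.26 without 2 such cows. IFNGR1, outside this cluster, had r = 0.86 with IFNAR2, so a high r was not limited to neighbors. IL10RB was also low in the same 4 cows, at 112 to 125 CPM against 134 to 204 CPM in the other 16.

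Over all 20 cows, no receptor or kinase gene had a correlation with interferon-stimulated genes that passed the test. The summed level of 20 tested type I targets ranged from 1151 to 6314 CPM and was highest in the 30 kg cow, in which the 9 genes ranked from 11 to 19 of 20. Of the 20 targets, 16 had a negative slope on BW at an unadjusted p below 0.05, beside 6.98% of all genes in that direction, and 0 had an FDR below 0.05 in edgeR and 5 in DESeq2. Without the 30 kg cow, 4 of the 20 had such a p and 0 such an FDR in edgeR, and the share over all genes in that fit is not given here. The antiviral gene MX2 was 0.54-fold per 10 kg (95% confidence interval 0.40 to 0.729, edgeR p = 0.000426, FDR = 0.118) and the ubiquitin-like modifier ISG15 was 0.572-fold (0.414 to 0.79, p = 0.00192, FDR = 0.168). Among the 9 genes, the r with the type I target score lay between -0.37 (JAK1, permutation p = 0.111) and 0.23 (IFNAR1), and none passed. That score was 3.17 in the 30 kg cow and 0.66 in the next highest, the 37 kg cow, so 1 cow weighs heavily in these r. The r of the 9 genes with the type I target score without that cow are not given here. With the score of 7 interferon gamma targets, SOCS1 had r = 0.17 in 20 cows (Spearman correlation = 0.43, permutation p = 0.489). Without the 30 kg cow its r was 0.49 (permutation p = 0.0339, unadjusted and 1 of 126 relations).

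Further genes of the pathway, taken from lists by role, also gave no call at an FDR of 0.05. Of 35 tested, 17 had a positive and 18 a negative slope, and 1 in each direction had an unadjusted p below 0.05, beside 6.66% of all genes in the positive and 6.98% in the negative direction, so the share was no higher than over all genes. Among the 7 STAT genes and IRF9, which relay the signal to the nucleus, 0 passed, and the smallest p was that of IRF9 (0.94-fold per 10 kg, edgeR p = 0.0622, FDR = 0.396). None of 10 further receptor and kinase genes passed either, and IL10RA had the smallest p (0.922-fold per 10 kg, edgeR p = 0.0649, FDR = 0.405). OSMR was too low to be tested.

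Both of these genes are brakes and are given as values. SOCS2, an inhibitor of growth hormone signaling that is induced through STAT5, ranged from 5.52 CPM in the 35 kg cow to 29.1 CPM in the 56 kg cow, with a median of 9.33. Its slope corresponded to 1.40-fold per 10 kg (95% confidence interval 1.10 to 1.78, edgeR p = 0.00868, FDR = 0.218). USP18, which removes ISG15 from proteins and blocks signaling at IFNAR2, is itself induced by interferon. It ranged from 11.8 CPM in the 55 kg cow to 44.02 CPM in the 30 kg cow, with a median of 16.6, and was 0.816-fold per 10 kg (0.703 to 0.947, edgeR p = 0.0098, FDR = 0.223). Without the 30 kg cow, USP18 was 0.944-fold per 10 kg (edgeR p = 0.29), whereas SOCS2 was 1.48-fold (edgeR p = 0.00716, FDR = 0.226).

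The genes whose level ran closest to each member were found among 9825 genes (9826 for SOCS1) with a mean of at least 5 CPM. The highest r was 0.93 for JAK1 with MSL1, a chromatin protein of the MSL complex. PXN, an adaptor protein of cell adhesions, was among the nearest 3 genes of TYK2 (r = 0.89). For IFNGR1 it was 0.91 with SOAT1, a cholesterol-esterifying enzyme, and for IFNAR2 it was 0.91 with SLC16A12, a transporter. IFNGR2 was closest to CYTH4 (r = 0.90), and IFNGR2 and SOCS3 shared JUNB, an AP-1 transcription factor, among their nearest 3 genes (r = 0.87 and 0.85). SOCS3 was closest to ZNF839 (r = 0.86), JAK2 to HERC1 (r = 0.84) and IFNAR1 to SORL1 (r = 0.83). SOCS1, with the fewest reads, had the lowest maximum, 0.68 with INTS10. Ranked by r, IFNGR1 was 7th of 9825 genes for IFNAR2, SOCS3 was 11th for IFNGR2, TYK2 was 290th for JAK1, and IFNAR2 was 122nd for its partner IFNAR1. These correlations were selected as the highest, share the same 20 libraries and are given without a test.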

How the data were processed

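Blood was drawn into Tempus tubes. For the libraries, the labels name a SMARTer Stranded kit and the paper a Truseq-stranded one. Reads were trimmed, aligned to ARS-UCD1.3 with STAR 2.7.0b and assigned to genes by featureCounts, and the authors deposited the raw counts under Entrez identifiers. How strand and multimapping reads were handled is not given in the sources used here. Symbols came from the ARS-UCD2.0 gene table.

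From the counts, edgeR 4.0.16 (R 4.3.3; TMM, robust quasi-likelihood test, at least 10 counts in at least 5 cows, 19 cows) gave slopes on BW, with Benjamini-Hochberg adjustment over 16206 genes. On simulated counts for that comparison, with 200 of 16206 genes changed by 0.06 per kg, 76.5% were recovered and 4.97% of calls were false. Every member had a slope much smaller than 0.06 per kg, and slopes of that smaller size were not simulated. The share recovered therefore does not apply to the members. DESeq2 1.42.0, limma 3.58.1 and other settings were alternatives. Correlations used TMM log2 CPM (prior count 2), Pearson and Spearman, and two-sided permutation tests with 100000 resamples (scipy 1.17.1, numpy 2.4.6 and pandas 2.3.3 under Python 3.11.15; matplotlib 3.10.9 for figures). Separate cows were the replicates. Totals of 24632077 to 39892111 counts limit counting precision mainly for SOCS1.

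The members and lists were chosen with earlier results of these data known. The genes named are the members, list genes with an unadjusted p below 0.05 or among the 4 smallest of their list, and the 3 genes with the highest r for each member (of these, examples). The neighbor IL10RB is in a list. The markers named outside this rule, and the 4 low cows, were singled out after their values were seen. Eosinophil and monocyte covariates, the 4-score correlation, Spearman in place of Pearson, the fit without robust estimation and the fit without 4 cows were also added then. The order of levels per length and the search of promoters for motifs were not run here.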

Additional observations from a re-analysis of the deposited data

How the results depend on the processing

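No member had an FDR below 0.05 under any alternative. The lowest FDR of TYK2 was 0.0713 (DESeq2), and that of JAK1 was 0.171. TYK2 and JAK1 had positive slopes in each of 32 alternatives, and the unadjusted p of TYK2 passed 0.05 in 31 and that of JAK1 in 27. The count of members at an unadjusted p below 0.05, 2 in the main result, was 1 with all 20 cows, 1 with the eosinophil score and 1 to 3 with a cow left out (1 without the 30 or the 56 kg cow). Over all genes, 2211 of 16206 passed in the main result, 2140 of 16269 with all 20 cows and 1394 of 16206 with the eosinophil score. The shares over all genes with a cow left out are not given here. The slopes per kg that turned, none past its threshold, were as follows. With all 20 cows IFNGR2 was -0.00091 and SOCS1 -0.00028. With neutrophil and T cell scores IFNGR2 was -0.0025, and with limma voom SOCS1 was -0.0019. With the monocyte score IFNAR1 was 0.00033, IFNGR1 0.00074 and SOCS3 0.0019, and with the eosinophil score IFNAR2 was 0.0029 and IFNGR1 0.0036. With a cow left out, the slope ranged from -0.00301 to 0.00063 for IFNAR1, from -0.0016 to 0.0032 for IFNGR2, from -0.00077 to 0.0102 for SOCS1 and from -0.0108 to 0.00029 for SOCS3. The cause was not tested.

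The count of correlated pairs, 5, was 8 with variance-stabilized counts and 8 with RLE size factors (adding IFNAR1 with IFNAR2, IFNGR1 with IFNGR2 and IFNGR1 with SOCS3), 9 given neutrophil and T cell scores, 3 given 4 scores, 2 without the 4 low cows, 3 by Spearman and 4 to 11 with a cow left out (9 without the 72.5 kg cow, 8 without the 50 kg cow, 11 without the 41.5 kg cow). The counts given scores rest on p-values that make no allowance for the scores fitted, so they may be too high. The number of members correlated with BW at an unadjusted p below 0.05, 1, was 2 in 19 cows. Pathway genes at an unadjusted p below 0.05 were 2 of 35 in the main result, beside 2211 of all 16206 genes. With all 20 cows they were 5 of 35, beside 2140 of all 16269 genes. With DESeq2 they were 3 of 36 (PTPN1 added), beside 2453 of all 23087 genes. Without the 30 kg cow they were 2 of 35, where USP18 was lost (edgeR p = 0.29) and PTPN1 gained (edgeR p = 0.0433). The count over all genes in that fit is not given here. The 10 relations with list scores stayed at 10 without the 30 kg cow, though a count does not say which.

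No paired analysis was possible because all cows formed 1 group. The order of levels per length and the promoter search were not run. SOCS1 rests on 40 to 129 reads per cow, and the smallest slope detectable for it was not computed.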

Other observations

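Few reads came from interferon genes themselves. IFNG, which encodes interferon gamma, had 0 to 60 reads per cow with a median of 16, and reads were present in 18 of 20 cows. IFNE had 1 to 42 reads with a median of 17. IFNB1, which encodes interferon beta, had 0 to 34 reads and was seen in 11 cows. The interferon tau genes IFNT2 and IFNT3 and the genes IFNW1, IFNK, IFNB3 and IFNAD were listed at 0 in every cow. Genes that blood cells are known to use, among them IRF1 and IFIT3, were listed at 0 as well, so a 0 here is not a measure of absence. Interferon genes have near-identical copies and the handling of multimapping reads is not given, so both these zeros and the few reads of IFNAC, IFNAF, IFNAG and IFNAH are uncertain.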
